A study of Mus musculus with 4 samples.

Results

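The genes described here are 9 components of the canonical Wnt pathway: Axin2, Sp5, Nkd1, Nkd2 and Apcdd1, which are feedback or target genes, and the transcription factor genes Lef1, Tcf7, Tcf7l1 and Tcf7l2. They were chosen by gene symbol, and all 9 were found among the 55426 rows of the deposited table. All 9 also reached the mean of at least 1 FPKM that placed 13931 genes in the test. FPKM is the count of sequenced fragments per kilobase of transcript and per unit of library depth. The values come from poly(A) RNA of day 6 mouse retinal organoids, aggregates of cultured cells steered towards retinal progenitors. Every library is from the Rx:GFP Mettl3 KO line carrying Dox-inducible HA-METTL3, so the knockout and the transgene are shared by both groups, and both were grown with AGN at 0.1 µM. METTL3 is the enzyme that writes N6-methyladenosine on RNA. The 2 untreated libraries received no doxycycline (Dox) and the other 2 received Dox at 2 µg/ml for 6 days. The labels do not say whether the line is a single clone, which promoter drives the transgene, or what the letters EV in all 4 sample titles stand for.

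In canonical Wnt signalling, a Wnt ligand bound to Frizzled and Lrp receptors stops a destruction complex from removing beta-catenin. Beta-catenin then enters the nucleus and binds the Tcf/Lef factors, which hold Wnt target genes silent in its absence. Many targets are inhibitors of the pathway itself, so their transcript levels are widely used to read its activity. In the forming forebrain, Wnt activity marks caudal and dorsal territory, and the eye field forms where it is low.

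The fitted sequencing depth was 31700000 to 34900000 fragments per library, and between 13813 and 13909 genes reached 1 FPKM. Mettl3 stood at 40.33 and 37.98 FPKM without Dox and at 45.2 and 46.37 FPKM with it. Its log2 fold change was 0.22 (SE 0.0681), which did not pass the threshold (adjusted p = 0.122 in limma). Transcripts of the knocked-out locus and of the transgene are not separated in this value, so it does not check the labels. The labelled tissue was checked with 8 eye field and retinal progenitor markers. Of these, 7 rose and 0 fell with Dox in limma (also 7 and 0 at an unadjusted p below 0.05), and their summed level went from 166.2 to 180.0 FPKM without Dox to 994.2 to 1156 FPKM with it. The retinal determinant Six6 was at 0.01 FPKM in both untreated libraries, so the untreated organoids lacked this defining marker of the labelled tissue. Pax6 was the listed gene that was not called, at 127.76 and 118.86 FPKM without Dox and at 122.8 and 130.69 FPKM with it. It made up most of the untreated sums. Rax was at 1.12 and 0.82 FPKM without Dox and at 201.14 and 227.98 FPKM with it.

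Of the 9 Wnt genes, 4 fell with Dox, namely Axin2, Sp5, Apcdd1 and Lef1, and 1 rose, Tcf7l1. The other 4, Nkd1, Nkd2, Tcf7 and Tcf7l2, did not pass the threshold of an adjusted p of 0.05 in limma. Among all 13931 tested genes, 9.31% were called, 4.87% as lower and 4.44% as higher with Dox. Their median log2 fold change on the log2(FPKM + 1) scale was -0.35, against -0.00423 over all tested genes. In 8 of the 9 the untreated and Dox libraries did not overlap, which held for 53.4% of all tested genes. Of the 8, Tcf7l1 and Tcf7l2 lay higher with Dox and the other 6 lay lower. Out of all 13931 tested genes, 26.5% lay higher without overlap and 26.9% lay lower without overlap. Only Tcf7 of the 9 had overlapping groups.

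**Figure D1:**
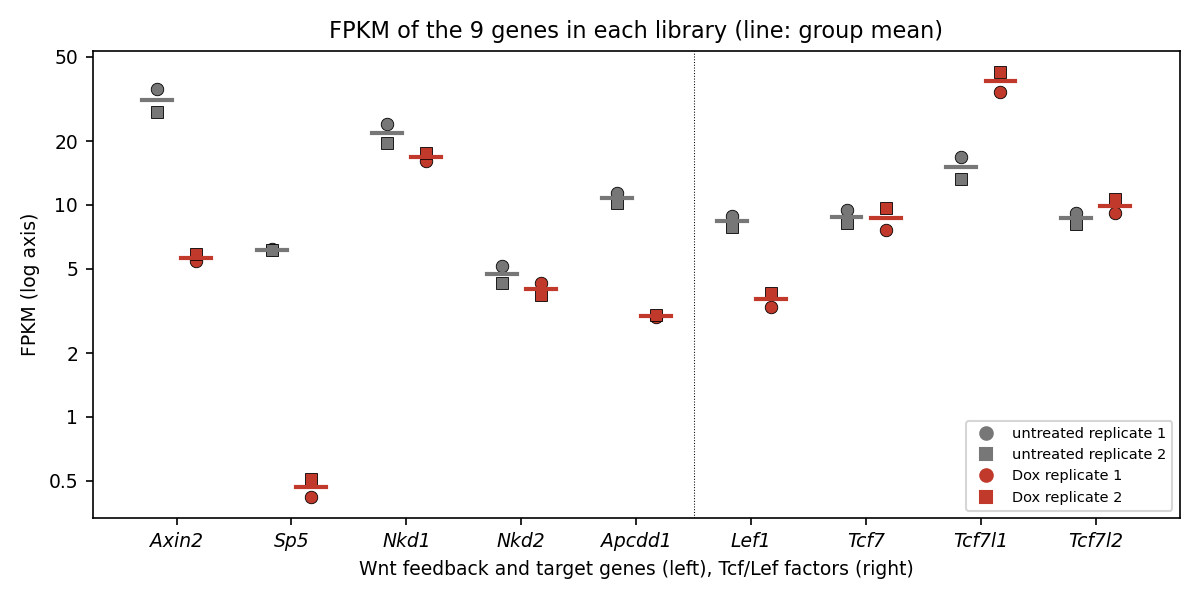
FPKM of the 9 genes on a log axis, with circles for replicate 1 and squares for replicate 2, grey for untreated and red for Dox libraries, and a line at each group mean. Sp5 dropped from just above 6 FPKM to about 0.5 FPKM, Tcf7l1 stood at 34.25 and 42.46 FPKM with Dox, and only for Tcf7 do the groups overlap.

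Axin2 (ENSMUSG00000000142, chr11:108920349-108950783 on the plus strand, GRCm38) encodes a scaffold of the beta-catenin destruction complex and is the most widely used feedback target of the pathway. Its values were 35.39 and 27.35 FPKM without Dox and 5.42 and 5.85 FPKM with it. Both Dox libraries lay far below both untreated ones, with each of the 4 pairings giving a ratio of 4.68- to 6.53-fold. The mean was 31.4 ± 5.69 FPKM without Dox against 5.64 ± 0.304 FPKM under Dox (SD, n = 2 each). On the log2(FPKM + 1) scale Axin2 fell by 2.28 (SE 0.136, adjusted p = 0.000582 in limma), and 0.926% of tested genes had a larger absolute fold change. It was the most abundant of the 9 transcripts without Dox and the fifth with it. An antisense gene, Gm11670, shares exon sequence with Axin2 and was listed at 0.1 FPKM in 1 untreated library and at 0 in the other 3 libraries.

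Sp5 (ENSMUSG00000075304, chr2:70474923-70477729, plus strand) encodes a zinc finger transcription factor that is a direct Wnt target. It stood at 6.18 and 6.13 FPKM without Dox and at 0.42 and 0.51 FPKM with Dox. The untreated libraries were nearly equal, and the Dox libraries were 12.0- to 14.7-fold lower. Sp5 has a single annotated transcript, so the fitted depth gives about 372 and 398 fragments behind the untreated values and about 25 and 31 behind the Dox values. Sp5 therefore remained above the level of a few fragments with Dox. Its log2 fold change was -2.29 (SE 0.118, adjusted p = 0.000353 in limma), which understates the ratio because 1 is added to a value below 1 FPKM. The pseudocount alone moved it from -1.03 with 5 added to -3.47 with 0.1 added.

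The promoter of Sp5 was compared with those of Axin2 and Lef1, because these genes fell together. Shown are the 250 bases before the annotated start in RefSeq (GRCm38.p6), read 5′ to 3′ on the gene's strand. Capitals mark matches to the Tcf/Lef recognition motif, searched on both strands as CTTTG followed by AA, AT, TA or TT. Sp5 lies at chr2:70474673-70474922 (plus strand), Axin2 at chr11:108920099-108920348 (plus strand) and Lef1 (window 1 of 4) at chr3:131110047-131110296 (plus strand).
Sp5: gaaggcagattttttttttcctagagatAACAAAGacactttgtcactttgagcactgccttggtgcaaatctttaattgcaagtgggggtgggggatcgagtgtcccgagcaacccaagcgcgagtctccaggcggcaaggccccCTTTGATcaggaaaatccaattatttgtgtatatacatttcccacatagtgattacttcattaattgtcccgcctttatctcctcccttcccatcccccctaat
Axin2: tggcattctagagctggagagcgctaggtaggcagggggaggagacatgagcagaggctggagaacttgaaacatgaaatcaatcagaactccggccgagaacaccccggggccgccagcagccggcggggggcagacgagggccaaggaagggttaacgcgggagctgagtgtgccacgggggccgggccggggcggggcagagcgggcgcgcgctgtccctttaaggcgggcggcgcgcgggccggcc
Lef1: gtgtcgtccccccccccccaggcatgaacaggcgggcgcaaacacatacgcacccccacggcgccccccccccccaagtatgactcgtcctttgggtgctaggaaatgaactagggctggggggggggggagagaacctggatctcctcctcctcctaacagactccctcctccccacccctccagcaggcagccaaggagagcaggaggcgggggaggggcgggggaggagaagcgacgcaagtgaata

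Sp5 holds 2 matches, one on the minus strand starting 222 bases before the gene and one on the plus strand starting 104 bases before it. The shorter core CTTTG, added after the data were seen, occurs at 2 further places in this window, 212 and 204 bases before the start. The Axin2 window holds neither form, and the Lef1 window shown holds 1 core and no full match. Apcdd1, which also fell, had no promoter entry and could not be compared. Of the 9 genes, the other 8 had a promoter entry, and 3 of these 8 had a full match in at least 1 of their windows: Sp5, Lef1 (in window 4 of 4) and Tcf7l2 (in window 2 of 2). Over all 27025 genes with an entry, 16.8% had one, and the core was present in 52.2% of genes and in 4 of the 8. Genes with more windows have more chances of a match, and over all 32851 windows 14.8% held a full match. The matching windows of Lef1 and Tcf7l2 lie inside the annotated spans of these genes. Tcf7, Nkd1 and Nkd2 had no full match in their windows. The only Nkd1 window, chr8:88527383-88527632, lies inside the annotated span of Nkd1, so the bases before that span were not searched. A match describes these letters and is not a measurement of binding.

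Apcdd1 (ENSMUSG00000071847) encodes a membrane glycoprotein that binds Wnt and Lrp proteins and inhibits signalling at the cell surface. It was listed at 11.38 and 10.18 FPKM without Dox and at 2.97 and 3.03 FPKM with Dox. The Dox libraries were close together and 3.36- to 3.83-fold below the untreated ones. Apcdd1 fell by 1.56 on the log2(FPKM + 1) scale (SE 0.104, adjusted p = 0.000831 in limma).

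The Naked cuticle genes did not behave like Axin2. Nkd1 and Nkd2 encode cytoplasmic proteins that bind Dishevelled and restrain the pathway. Nkd1 (ENSMUSG00000031661, chr8:88521354-88594884, plus strand) stood at 24.08 and 19.59 FPKM without Dox and at 16.19 and 17.58 FPKM with Dox. Its Dox libraries lay below its untreated ones without overlap, but the log2 fold change of -0.35 (95% interval -0.64 to -0.06) did not pass after adjustment (unadjusted p = 0.0272, adjusted p = 0.147 in limma). Nkd2 (ENSMUSG00000021567, chr13:73818534-73847631, minus strand) was at 5.16 and 4.3 FPKM without Dox and at 4.26 and 3.74 FPKM with Dox. The groups were separated by only 0.04 FPKM at their nearest libraries, and the log2 fold change was -0.19 (95% interval -0.51 to 0.13, adjusted p = 0.429 in limma). The Nkd1 interval leaves room for a decrease of up to 0.64, well short of the decrease of Axin2. The per-length ratio of Nkd1 to Axin2 was 0.680 and 0.716 in the untreated libraries and 2.99 and 3.01 in the Dox libraries, so that Nkd1 changed from the scarcer to the more abundant of the pair. The ratio of Nkd1 to Nkd2 was 4.67 and 4.56 without Dox and 3.80 and 4.70 with it, and its groups overlapped. Exact two-sided permutation p-values were 0.333 for the first ratio and 1 for the second, and 0.333 is the smallest that 2 libraries against 2 allow.

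**Figure D2:**
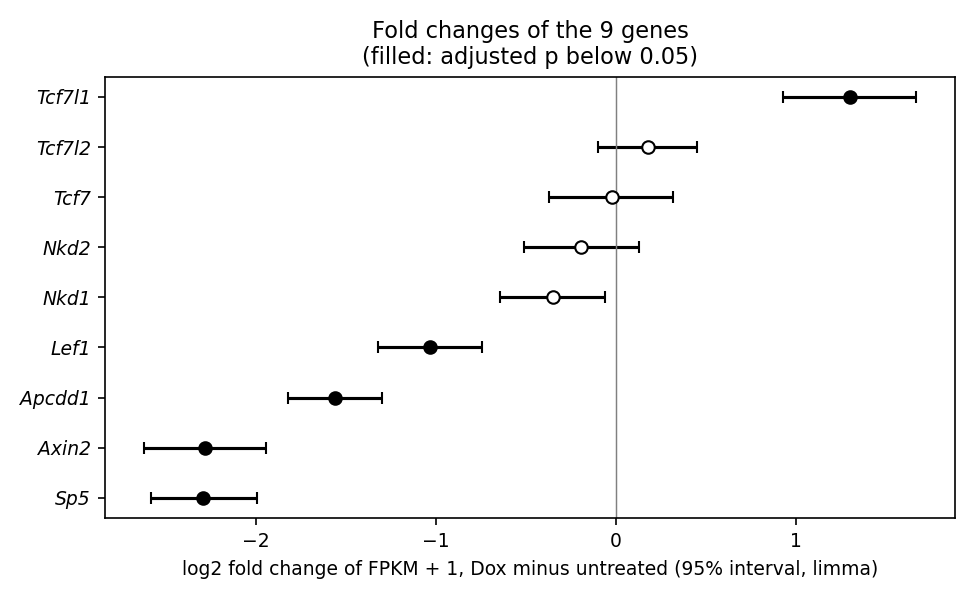
Log2 fold changes of the 9 genes on the log2(FPKM + 1) scale, Dox minus untreated, with 95% intervals from limma and filled points for an adjusted p below 0.05. Sp5 (-2.29), Axin2 (-2.28), Apcdd1 (-1.56) and Lef1 (-1.03) lie to the left and Tcf7l1 (1.30) to the right, with 4 open points between.

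The Tcf/Lef factors share an HMG box that binds DNA and a beta-catenin binding region at the amino terminus, and differ in how much they activate or repress. Lef1 (ENSMUSG00000027985, chr3:131110471-131224356, plus strand) acts mainly as an activator with beta-catenin and is itself a Wnt target. It was listed at 8.83 and 7.89 FPKM without Dox and at 3.31 and 3.86 FPKM with Dox. Each Dox library was 2.04- to 2.67-fold below each untreated one. Lef1 fell by 1.03 on the log2(FPKM + 1) scale (SE 0.117, adjusted p = 0.00533 in limma). The call was lost when genes were not filtered by level, with an adjusted p of 0.0524 in limma.

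Tcf7l1 (ENSMUSG00000055799, chr6:72626378-72789254, minus strand), also known as Tcf3, acts mainly as a repressor of Wnt targets, and is required for anterior head and forebrain development. It moved the other way, from 16.77 and 13.3 FPKM without Dox to 34.25 and 42.46 FPKM with Dox. The lower Dox library was 2.04-fold above the higher untreated one. Tcf7l1 rose by 1.30 on the log2(FPKM + 1) scale (SE 0.148, adjusted p = 0.00539 in limma). This call depended on Dox replicate 2, the higher of the pair: without it the log2 fold change was 1.14 with an adjusted p of 0.0567, and without the level filter the adjusted p was 0.0661 in limma. Antisense genes share exon sequence with Tcf7l1 and Lef1, and whether counting used strand is not given in the sources used here. For Tcf7l1 that gene, Gm15401, was listed at no more than 0.16 FPKM in any library.

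Tcf7 (ENSMUSG00000000782, chr11:52252371-52283014, minus strand), the T cell factor Tcf1, was at 9.43 and 8.18 FPKM without Dox and at 7.64 and 9.72 FPKM with Dox. The Dox libraries bracketed the untreated ones, and the log2 fold change was -0.02 (95% interval -0.37 to 0.32, adjusted p = 0.937 in limma). Tcf7l2 (ENSMUSG00000024985, chr19:55741820-55933654, plus strand), also known as Tcf4, stood at 9.12 and 8.17 FPKM without Dox and at 9.18 and 10.62 FPKM with Dox. Its nearest libraries differed by 0.06 FPKM, and the log2 fold change of 0.18 did not pass (95% interval -0.10 to 0.45, adjusted p = 0.408 in limma). A gene-level value does not separate the isoforms of these factors with and without the beta-catenin binding region.

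Because FPKM is scaled to length, the levels of the 4 factors can be set beside each other. Their sum was 44.15 and 37.54 FPKM in the untreated libraries and 54.38 and 66.66 FPKM in the Dox libraries. Tcf7l1 made up 38.0% and 35.4% of that sum without Dox and 63.0% and 63.7% with Dox. Lef1 made up 20% and 21.0% without Dox and 6.09% and 5.79% with Dox. The untreated libraries thus held Tcf7, Lef1 and Tcf7l2 at nearly equal shares below Tcf7l1, and in the Dox libraries Tcf7l1 exceeded the other 3 factors combined. The shares of Tcf7 and Tcf7l2, whose levels did not pass the test, went from 21.6% to 14.3% and from 21.2% to 16.4% on average as the sum grew. The ratio of Tcf7l1 to Lef1 was 1.90 and 1.69 without Dox and 10.3 and 11 with Dox. The groups did not overlap in any of the 4 shares or in this ratio, and each had an exact two-sided permutation p of 0.333, the smallest possible here.

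**Figure D3:**
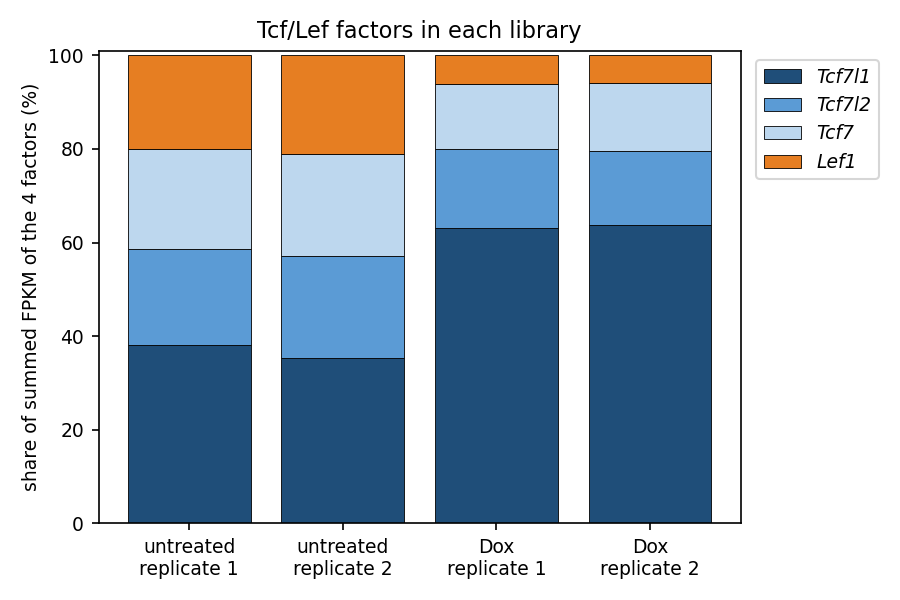
Share of Tcf7l1, Tcf7l2, Tcf7 and Lef1 in the summed FPKM of the 4 factors, in percent, with 1 stacked bar per library. Replicates agree closely: Tcf7l1 takes 35.4% to 38.0% of the untreated bars and 63.0% to 63.7% of the Dox bars, and Lef1 shrinks to about 6%.

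The order of the 9 levels also changed. Without Dox the order by mean was Axin2, Nkd1, Tcf7l1, Apcdd1, Tcf7, Tcf7l2, Lef1, Sp5 and Nkd2, and only Tcf7, Tcf7l2 and Lef1 overlapped between neighbours. With Dox it was Tcf7l1, Nkd1, Tcf7l2, Tcf7, Axin2, Nkd2, Lef1, Apcdd1 and Sp5, where Tcf7l2 overlapped Tcf7 and Nkd2 overlapped Lef1. The range from highest to lowest mean was 31.4 to 4.73 FPKM untreated and 38.4 to 0.465 FPKM with Dox.

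The rest of the pathway was described with 5 gene lists. Among 19 Wnt ligand and 4 R-spondin genes, which supply the signal, 10 were tested, 9 of them fell and 1 rose, with a median log2 fold change of -2.62. Without a level filter all 23 were tested, 12 were called (11 lower, 1 higher) and the median was -0.575. R-spondins amplify Wnt signals, and Rspo1 was listed at 20.03 and 15.56 FPKM without Dox and at 1.70 and 1.35 FPKM with Dox, which is -2.89 as a log2 fold change (adjusted p = 0.000380 in limma). The gene that rose, named after its value was seen, was Wnt5b, a ligand usually placed outside the beta-catenin branch, with a log2 fold change of 0.99. Its relative Wnt5a, also named after its value was seen, was among those that fell (-1.26, adjusted p = 0.00267 in limma). Of the 12 Frizzled and Lrp receptor genes, all tested, 3 rose and 5 fell, with a median of -0.02. The extremes were Fzd5, a receptor gene of the eye field, with a log2 fold change of 4.73, and Fzd10 with -2.24. Fzd8 (2.04) was among the receptors that rose, and Fzd9 (-1.63) and Fzd4 (-1.07) among those that fell. Ligands and receptors thus did not move as a block.

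Downstream of the receptors the lists held 2 and 3 called genes, beside 9.31% called among all tested genes. Before adjustment, p was under 0.05 in limma for 8 of 21 destruction complex and Dishevelled genes and 8 of 18 nuclear genes (38.1% and 44.4%), against 23.9% of all tested genes. In the list of destruction complex and Dishevelled genes, 21 of 22 were tested, 1 rose and 1 fell, and the median log2 fold change was 0.08. They were Amer2, a membrane partner of Apc (0.56, adjusted p = 0.0224 in limma), and Dixdc1, a Dishevelled-related positive regulator (-0.65, adjusted p = 0.0296). Both calls were lost in each of the 4 fits that left out 1 library and in the fit without a level filter, and that of Amer2 also after rescaling to TPM. In the list of beta-catenin and its nuclear partners, 18 of 21 were tested, 2 rose and 1 fell, with a median of -0.01. Ctnnbip1, whose product ICAT keeps beta-catenin from Tcf factors, was at 32.2 and 27.61 FPKM without Dox and at 55.45 and 55.4 FPKM with Dox. Its log2 fold change was 0.87 (adjusted p = 0.00368 in limma), and it narrowly missed without Dox replicate 1 (adjusted p = 0.0512) and without Dox replicate 2 (adjusted p = 0.0540). Nlk, a kinase that phosphorylates Tcf/Lef factors, had a log2 fold change of 0.55 (adjusted p = 0.0171). Tle1, a Groucho corepressor that binds Tcf factors, had -0.50 (adjusted p = 0.0152). The Nlk call was lost in each of the 4 fits that left out 1 library, and the Tle1 call in all of them except the fit without Dox replicate 2. Both were lost without a level filter (adjusted p = 0.0665 and 0.0672). The gene for beta-catenin itself, Ctnnb1, named for comparison after its value was seen, was at 462.96 and 445.92 FPKM untreated and at 455.54 and 431.98 FPKM with Dox (adjusted p = 0.833 in limma). Transcript levels do not measure the amount or location of its protein.

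Other genes known as Wnt targets were not uniformly lower. Of 20 such genes, 8 were tested, of which 2 fell, 2 rose and 4 did not pass, with a median log2 fold change of 0.28. At an unadjusted p below 0.05 in limma, 2 were lower and 4 higher. Tnfrsf19, also called Troy, a receptor gene of the tumour necrosis factor family, fell from 40.85 and 38.05 FPKM to 4.69 and 4.36 FPKM (log2 fold change -2.87, adjusted p = 7.42e-05 in limma). Mycn, a progenitor proliferation gene, fell from 36.9 and 33.33 FPKM to 15.44 and 14.28 FPKM (log2 fold change -1.19, adjusted p = 0.00107). Myc went from 2.86 and 2.77 FPKM to 14.45 and 18.35 FPKM, a rise of 2.18 (adjusted p = 0.000634). Bambi, which encodes a pseudoreceptor of the TGF-beta family, rose by 0.85 (adjusted p = 0.00962), a call that was lost without a level filter (adjusted p = 0.0663), without untreated replicate 1 (0.0641), without Dox replicate 1 (0.0801) and without Dox replicate 2 (0.0833).

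**Figure D4:**
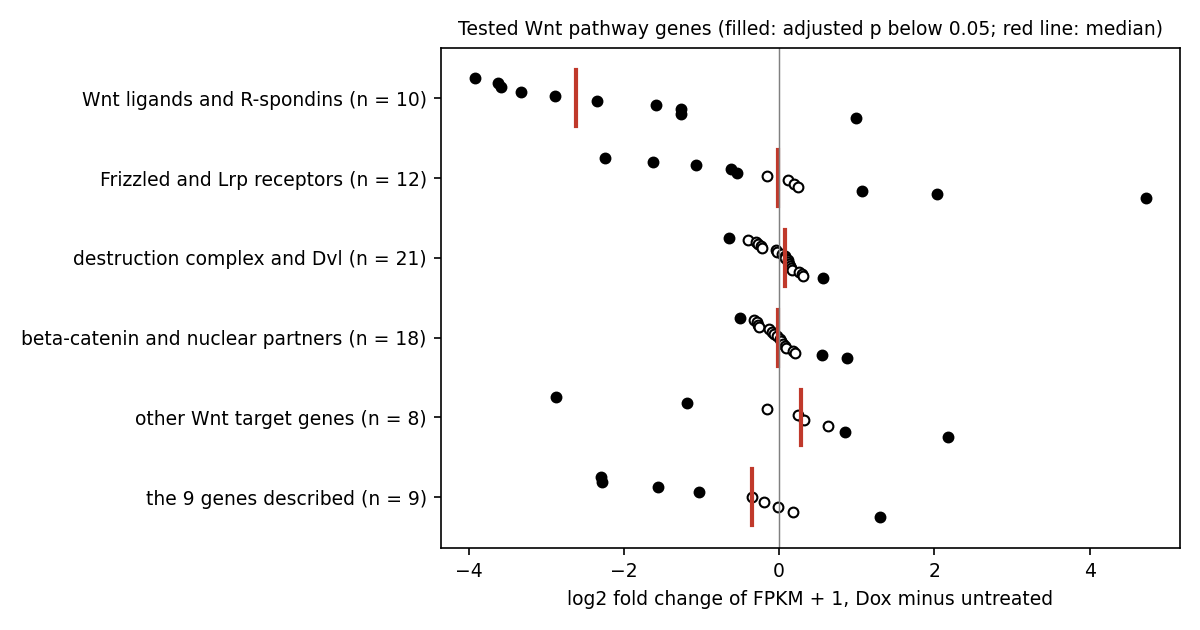
Log2 fold changes on the log2(FPKM + 1) scale of the tested genes in 5 Wnt pathway lists and of the 9 genes described, 1 point per gene, filled for an adjusted p below 0.05, with a red line at each median. Ligands and R-spondins lie mostly on the left (median -2.62), destruction complex genes gather near 0 (median 0.08), and the 9 genes spread from -2.29 to 1.30.

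Markers of several, but not all, other regions and cell types moved with the same contrast. Forebrain dorsal midline markers had 6 of 7 tested genes lower and 0 higher in limma (7 and 0 at an unadjusted p below 0.05), and the summed level of all 10 was 226.4 to 227.9 FPKM without Dox and 19.48 to 20.93 FPKM with it. Of the 10, 6 are also in the ligand and R-spondin list, with 4 of the 7 tested genes and most of the sum (209 to 211 FPKM untreated). The 4 midline markers in no other list had 2 of 3 tested genes lower, with sums of 16.4 to 17.5 FPKM untreated and 5.82 to 5.86 FPKM with Dox. Of the whole list Wnt8b, Rspo2 and Rspo3 had log2 fold changes of -3.92, -3.62 and -3.32. Diencephalon and midbrain markers had 4 of 5 tested genes lower and 0 higher, with sums over 8 genes of 22.11 to 24.61 FPKM untreated and 4.78 to 5.08 FPKM with Dox. Barhl2 (-2.58), Pax3 (-2.33) and Irx3 (-1.44) had the largest changes there. All 6 tested neuron markers were lower and 0 higher (sums over 8 genes of 149.3 to 152.6 and 82.44 to 86.26 FPKM), led by Stmn2 (-1.87), Elavl4 (-1.73) and Neurod1 (-1.70). Most of these sums was Tubb3 (-0.59), at 118.53 and 116.78 FPKM untreated and at 75.76 and 79.83 FPKM with Dox. Neural crest markers had 5 of 6 lower and 0 higher (sums of 39.04 to 40.09 and 10.07 to 10.91 FPKM), led by Sox10 (-3.12), Tfap2b (-2.45) and Foxd3 (-2.23). For these last 3 lists the counts at an unadjusted p below 0.05 were the same. Pluripotency markers had 0 of 7 called (2 genes lower and 0 higher with an unadjusted p under 0.05), with sums of 31.11 to 31.49 FPKM untreated and 23.31 to 32.74 FPKM with Dox. The 8 mesendoderm markers were all under the level filter, with sums of 2.17 to 2.42 FPKM untreated and 2.52 to 2.97 FPKM with Dox. These sums cover shifts in both directions, with 1 gene of each named after its value was seen. Eomes was at 0.77 and 0.58 FPKM without Dox and at 0.14 and 0.11 FPKM with Dox. Hand1 was at 0.28 and 0.14 FPKM without Dox and at 1.6 and 0.95 FPKM with Dox. No listed marker was at 0 in all 4 libraries. In bulk RNA, fewer cells of a type and less RNA per cell cannot be told apart, and the part of these markers in the fall of Axin2, Sp5, Apcdd1 and Lef1 was not tested.

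The genes whose pattern over the 4 libraries came closest to that of Sp5 were Zic4, Fzd10 and Cx3cl1. Sp5 was taken because its log2 fold change was the largest in size among the 9, at -2.29 against -2.28 for Axin2. With a pseudocount of 5 it was -1.03 and that of Axin2 -1.77, so this choice depends on the pseudocount. Closeness was the Euclidean distance of log2(FPKM + 1) values, each centred on its mean over the 4 libraries, and it was 0.0672, 0.0801 and 0.102. Zic4, a zinc finger gene of the dorsal neural tube, was at 5 and 5.2 FPKM without Dox and at 0.19 and 0.23 FPKM with Dox. Cx3cl1, a chemokine gene, was at 21.96 and 21.31 FPKM without Dox and at 3.51 and 4.18 FPKM with Dox. With 4 libraries in 2 groups, this likeness mostly says that the fold changes were similar on the log2(FPKM + 1) scale. The plain ratios of the untreated to the Dox mean differed more. They were 13.2 for Sp5, 24.3 for Zic4, 6.17 for Fzd10 and 5.63 for Cx3cl1, so the likeness also depends on the pseudocount.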

How the data were processed

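RNA from day 6 organoids in 4 libraries (2 untreated, 2 with Dox, grouped by the treatment label) was sequenced as poly(A) RNA. The authors deposited FPKM values, 1 column per library, rounded to 2 decimals. Per the submitters' processing notes STAR, Cuffdiff and the build mm10 were used, with no versions. The annotation and strand setting are not given in the sources used here. Depth was fitted from the steps of low FPKM values of single-transcript genes: 89.4% to 90.7% came out within 0.2 of a whole fragment. After the values were shuffled among genes and the depth fitted again, 43.1% to 45.2% did. The fitted depth gives only an approximate fragment number.

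FPKM is not a count, so log2(FPKM + 1) was tested for 13931 genes whose mean over the 4 libraries reached 1 FPKM, with limma 3.58.1 (R 4.3.3, eBayes with trend) on all 4 libraries, two-sided, with Benjamini-Hochberg adjustment over all tested genes and a threshold of 0.05. The prior had 3.5 degrees of freedom. The labels do not say that replicates came from separate cultures, so p-values measure only the spread between these libraries, which may be technical. One batch label covers all 4. The fit was tested on simulated data with independent noise at each gene's own spread, which cannot show whether these libraries are separate cultures.

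The 9 genes and all lists were chosen with earlier results of these data known. Named besides the 9 were Mettl3, up to 5 called genes per pathway list and 3 per marker list by absolute fold change, and the 3 nearest patterns. A marker gene that this would name is not reported here and remains in all counts. Gene positions are from GENCODE M21 (GRCm38), promoters from RefSeq (GRCm38.p6). A planned protein comparison was not run. Alternatives were other pseudocounts (0.1, 5), filters (none, 5 FPKM), scalings (TPM, median, quantile), eBayes settings, a replicate block, each library left out and, added after the data were seen, removal of GC and length trends.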

Additional observations from a re-analysis of the deposited data

Results flagged for a closer look

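A row left out of the main fit by the level filter, AL844849.1 (ENSMUSG00000118399), is annotated as a pseudogene of Apcdd1. Dox replicate 1 has it at 0.1 FPKM. It is at 0 in the remaining 3, so this value exceeds the untreated level, but it rests on 1 library and is far under the filter. Apcdd1 itself was at 2.97 FPKM in the same library.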

How the results depend on the processing

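Of 133 fold changes of the 9 genes under alternatives, 128 kept their direction and side of the threshold. Calls of Axin2, Sp5 and Apcdd1 held in every fit that tested them, with adjusted p-values in limma of at most 0.0239. Without a level filter 3 of the 9 were called, Lef1 and Tcf7l1 being lost, and leaving out 1 library gave 4 to 5. Tcf7, not called, ranged from -0.18 to 0.13 with 1 library left out and was positive when untreated replicate 1 (0.07) or Dox replicate 1 (0.13) was removed. Over the table, calls numbered 1297, against 745 without a filter (336 higher, 409 lower), 821 with a filter of 5 FPKM, 593 to 697 with 1 library left out and 1797 with GC and length trends removed. In the fits with 1 library left out, the lone library of its group is assumed to vary like the others. Destruction complex calls (2) became 0 without a filter (7 at an unadjusted p below 0.05 in limma), 1 with TPM, 4 with GC and length removed and 0 in each fit with a library left out (4 to 8 unadjusted). Nuclear partner calls (3) became 1 without a filter and 0 to 1 with a library left out (4 to 7 unadjusted). Those fits also called 3 to 4 other Wnt targets, 10 ligands and 7 receptors in each. With a library left out, the Dox minus untreated difference in share among the Tcf/Lef factors was 25.4 to 27.9 percentage points for Tcf7l1, -15.1 to -14.1 for Lef1, -7.53 to -6.99 for Tcf7 and -5.36 to -4.25 for Tcf7l2. A replicate block on the library numbers gave 1134 calls (532 higher, 602 lower) and again 5 of the 9. Nothing shows that equal numbers mark a pair: deviations of same-numbered libraries correlated at -0.0435 across genes. The cause of these shifts was not tested beyond the fewer libraries or the other genes tested.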

Other observations

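Among known Wnt targets under the level filter, several were low in both groups, and some of them are named here after their values were seen. T was at 0.31 and 0.34 FPKM without Dox and at 0.03 and 0.11 FPKM with Dox. Tbx6 was at 0.58 and 0.62 against 0.55 and 0.61 FPKM, with overlapping groups. Wif1, which encodes a secreted Wnt inhibitor, was at 0.57 and 0.7 FPKM without Dox and at 0.05 and 0.07 FPKM with Dox. Notum, which encodes an enzyme that inactivates Wnt ligands, was at 0.86 and 0.87 FPKM without Dox and at 0.42 and 0.79 FPKM with Dox. The receptor-removing ligase gene Rnf43 was at 0.54 and 0.44 against 0.61 and 0.35 FPKM, with overlapping groups. Its relative Znrf3, which was tested, stood at 3.67 and 3.13 FPKM without Dox and at 2.66 and 3.27 FPKM with Dox (adjusted p = 0.567 in limma). Lgr5, an R-spondin receptor gene, was at 0.85 and 0.86 FPKM without Dox and at 1.6 and 2.18 FPKM with Dox, higher in both Dox libraries but short of the threshold (log2 fold change 0.63, adjusted p = 0.0678 in limma).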
